A study of Mus musculus with 16 samples.

Results

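The 10 genes described here encode proteins of the plasma cell surface and of the pathway by which antibody is folded and secreted. They are *Jchain*, *Mzb1*, *Derl3*, *Fkbp11*, *Tnfrsf17*, *Tnfrsf13b*, *Tnfrsf13c*, *Slamf7*, *Sdc1* and *Cd93*, chosen by symbol, and each was found once among the 51912 genes of the table. Total RNA was sequenced from 16 libraries of splenic germinal center (GC) B cells, 4 for each of 4 subpopulations. The mice, males and females aged 6 to 15 weeks, were cMyc gfp/gfp reporters that carry a GFP-cMyc fusion in place of the endogenous protein, and all groups shared this allele and a sheep red blood cell (SRBC) immunization 7 d earlier. B220+ CD38low CD95+ cMycGFP+ cells were sorted as CD69hi (cMyc+prePB), CD23hi CD21/35hi (cMyc+early), CD23int CD21/35int (cMyc+lateCD23int) or CD23lo CD21/35lo (cMyc+lateCD23lo). In the study's gating, the last 3 were light zone cells left after CD69hi and CXCR4hi CD86lo (dark zone) cells were set aside. cMyc+prePB was gated without zone markers and was mostly, not only, light zone cells. B cells were first enriched by removing CD43+ cells. Plasmablasts carry CD43 and many have low B220, so both steps can deplete them. How far they did so in these samples was not tested. The labels do not say whether a library came from 1 mouse or from several, so p-values measure the spread between these libraries.

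Plasma cells arise from activated B cells and turn much of the cell over to making antibody. The joining chain, encoded by *Jchain*, links IgM and IgA subunits into polymers, and *Mzb1* encodes a chaperone of the endoplasmic reticulum (ER) that aids their assembly. *Derl3* encodes an ER membrane protein of the degradation route for misfolded proteins, and *Fkbp11* an FK506-binding prolyl isomerase of the secretory pathway. *Tnfrsf17* (BCMA), *Tnfrsf13b* (TACI) and *Tnfrsf13c* (BAFF receptor) encode receptors for the survival ligand BAFF, and not all of them also bind the related APRIL. BCMA is the receptor of plasma cells, whereas the BAFF receptor serves mature B cells. *Slamf7*, *Sdc1* (CD138) and *Cd93* encode surface proteins, of which CD138 is the customary marker of plasma cells.

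Values are normalized counts, for which the authors scaled each library by its own size factor. From 19812080 to 25795815 reads were recovered per library, and 14650 to 15573 genes were detected. A gene at or under 3 reads, or normalized counts of 2.48 to 3.23 depending on the library, was read as not measurable. The floor covers counting error only, because no molecular identifiers set copies of a molecule apart. All 7 B cell markers and all 7 GC B cell markers of the lists used were expressed in every library, with *Ms4a1* (CD20) at 40188 or more normalized counts. Differences were tested with limma on log2(normalized count + 1) of 12505 genes, those that averaged 10 or more over the libraries. Replicate numbers were left out of the fit, although same-numbered libraries were more alike on average. The p-values therefore take no account of anything such libraries share. Of the 10 genes, 9 passed this filter, and *Tnfrsf17* did not. In cMyc+prePB against the other 3 subpopulations, 6 of the 7 B cell markers were lower and 1 higher (median log2 difference -0.35). Of the 7 GC B cell markers, 5 were lower and 2 higher (median -0.21), and no marker of either list was called. *Ptprc* (B220), one of these B cell markers, differed by -0.52 (limma adjusted p = 0.182). In bulk RNA, more cells with a transcript and more transcript per cell cannot be told apart.

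The 10 genes spanned the whole range of expression. Per kilobase of exon, the mean level over the 16 libraries was highest for *Jchain* at 18444 normalized counts, followed by *Mzb1* at 8992, *Tnfrsf13c* at 5680, *Tnfrsf13b* at 1878, *Slamf7* at 1108.5 and *Derl3* at 310.1. The other 4 lay far below, with *Fkbp11* at 11.4, *Cd93* at 6.46, *Sdc1* at 3.46 and *Tnfrsf17* at 1.87 normalized counts per kilobase. By the same measure *Jchain* stood at percentile 99.4 of the tested genes and *Sdc1* at percentile 3.45. Every subpopulation held abundant transcript of *Jchain*, *Mzb1* and the receptor genes *Tnfrsf13b* and *Tnfrsf13c*, while the customary plasma cell markers *Sdc1* and *Tnfrsf17* were at or near 0 in most libraries.

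**Figure D1:**
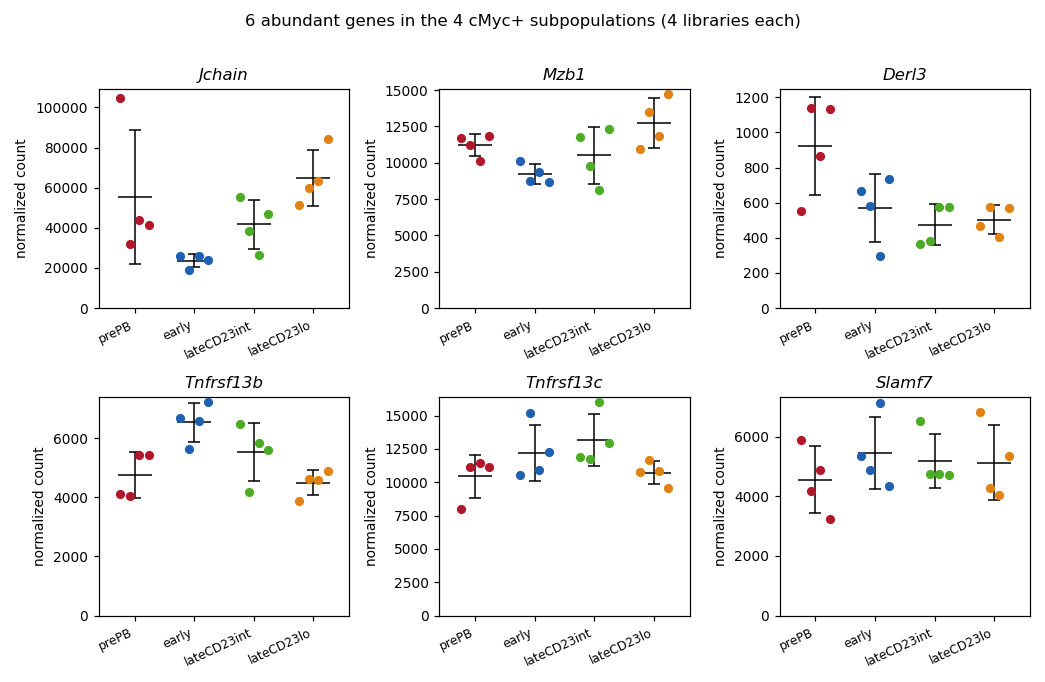
Normalized counts (linear axis from 0) of the 6 abundant genes in the 4 libraries of each subpopulation, with 1 point per library in the order of replicates 1 to 4 and the mean ± SD in black. *Jchain* was at 18862 to 25959.6 in cMyc+early and at 51542 to 84469.5 in cMyc+lateCD23lo, and *Derl3* had its highest mean in cMyc+prePB.

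*Jchain* (ENSMUSG00000067149, GRCm38 chr5:88519809-88527891) was lowest in cMyc+early and highest in cMyc+lateCD23lo. The normalized counts of replicates 1 to 4 were 25889.6, 18862, 25959.6 and 23781 in cMyc+early. In cMyc+lateCD23int they were 55167, 38337, 26598 and 47076, and in cMyc+lateCD23lo 51542, 59946, 63385 and 84469.5. In cMyc+prePB they were 104886, 31885, 43640.1 and 41362, so that replicate 1 held the highest value of the 16 libraries. Every cMyc+early library was below every library of the other 3 subpopulations, whereas cMyc+prePB, cMyc+lateCD23int and cMyc+lateCD23lo overlapped. The means were 23623 ± 3331 (SD, n = 4) in cMyc+early, 41795 ± 12242 in cMyc+lateCD23int, 55443 ± 33352 in cMyc+prePB and 64836 ± 14003 in cMyc+lateCD23lo.

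Between cMyc+early and cMyc+lateCD23lo, *Jchain* differed by -1.44 ± 0.29 (SE) on the log2 scale, a level 2.72-fold higher in cMyc+lateCD23lo (95% interval of the log2 difference -2.05 to -0.84, limma adjusted p = 0.0394). It was the single call among the 9 genes tested in that comparison, in which 0.28% of all genes were called. The quasi-likelihood test of edgeR on the recovered reads gave the same direction with an adjusted p of 0.0639. Leaving out 1 library kept the direction in all 16 fits and lost the call in 10, with limma adjusted p from 0.0509 to 0.158: each of the 4 cMyc+early libraries, replicates 2, 3 and 4 of cMyc+lateCD23lo, replicates 2 and 4 of cMyc+lateCD23int and replicate 3 of cMyc+prePB.

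The other differences of *Jchain* did not pass. From cMyc+early to cMyc+prePB the log2 difference was 1.08 ± 0.29 (SE, limma adjusted p = 0.194), and without replicate 1 of cMyc+prePB it was 0.72. The difference was -0.78 for cMyc+early minus cMyc+lateCD23int (limma adjusted p = 0.9999) and -0.66 for cMyc+lateCD23int minus cMyc+lateCD23lo (limma adjusted p = 0.757). The order of the 2 highest subpopulations was not resolved either, since the difference of cMyc+prePB minus cMyc+lateCD23lo was -0.36 with a 95% interval of -0.97 to 0.24. Over the 4 subpopulations the F test of limma gave an adjusted p of 0.102, with 0.408% of all genes called. Without replicate 1 of cMyc+prePB this F test gave an adjusted p of 0.00994 for *Jchain*. Leaving out any other single library gave 0.0622 to 0.239 in the same test.

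*Mzb1* (ENSMUSG00000024353) followed the same order of means over a narrower range. Its normalized counts in replicates 1 to 4 were 10131, 8738, 9396 and 8691 in cMyc+early and 11749, 9786, 8115 and 12359 in cMyc+lateCD23int. In cMyc+prePB they were 11687, 11208, 10136 and 11814, and in cMyc+lateCD23lo 10914, 13521, 11816 and 14746. All cMyc+early values were under those of cMyc+prePB and cMyc+lateCD23lo, with the highest cMyc+early library (10131) next to the lowest cMyc+prePB library (10136), and overlapped those of cMyc+lateCD23int. The log2 difference of cMyc+early minus cMyc+lateCD23lo was -0.46 ± 0.14 (SE, limma adjusted p = 0.254). In the GENCODE annotation, exons of *Mzb1* overlap those of ENSMUSG00000117874, a gene on the same strand. That gene has no values in these data, so a split of reads between them was not tested.

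**Figure D2:**
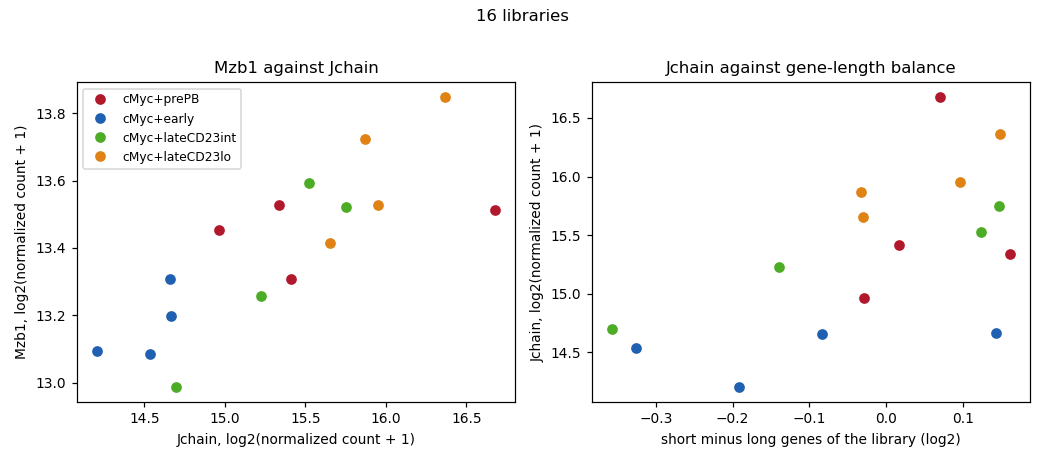
Left, *Mzb1* against *Jchain*, both as log2(normalized count + 1), with 1 point per library and colors for the 4 subpopulations. Right, *Jchain* against the difference between short and long genes of the same library (log2). In both plots the libraries with low values on the x axis tended to have low values on the y axis, with Pearson r of 0.81 and 0.611.

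Over the 16 libraries, log2 *Jchain* and log2 *Mzb1* had a Pearson r of 0.81 and a Spearman rho of 0.809. Without the pair of libraries farthest from the median of *Jchain* r was 0.861, and with the subpopulation means subtracted it was 0.595. These are descriptions, since the libraries share subpopulations and a normalization. Both genes are short (2517 and 1215 exon bases), and both moved with the balance of short against long genes of a library. This balance was the median log2 deviation of 2162 genes with up to 2619.5 exon bases minus that of 2166 genes with at least 6780.5. Its mean was lowest in cMyc+early at -0.115 ± 0.198 (SD, n = 4), then -0.0568 ± 0.239 in cMyc+lateCD23int, 0.0449 ± 0.0909 in cMyc+lateCD23lo and 0.0547 ± 0.0816 in cMyc+prePB, with overlapping ranges. The r of this balance was 0.611 with *Jchain* and 0.746 with *Mzb1*. Without the pair of libraries farthest from the median of the balance, r was 0.511 and 0.562. With the subpopulation means subtracted it was 0.527 and 0.739. With the other tested members under 2619.5 bases, r over the 16 libraries was negative, at -0.588 for *Tnfrsf13c* (2048 bases) and -0.139 for *Derl3* (1993 bases). The cause of these correlations was not tested. With the balance as a covariate, an alternative added after the data were seen, the difference of *Jchain* between cMyc+early and cMyc+lateCD23lo was -1.20 on the log2 scale (limma adjusted p = 0.0942).

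The genes whose log2 values were most like those of *Jchain* over the 16 libraries were *Glrx3* (r = 0.917) and *Hint2* (r = 0.911). For *Mzb1* they were *Mrpl20* (r = 0.897) and *Chchd2* (r = 0.884), 2 genes of mitochondrial proteins. None of the 4 encodes a protein of antibody secretion by its textbook role. The share of counts from immunoglobulin genes ranged from 1.35% to 2.65% and was highest in replicate 1 of cMyc+prePB, the library with the most *Jchain*.

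The summed T cell markers were also lowest in cMyc+early. Of the 8 listed, 4 passed the filter, and the summed normalized counts of the list were 4634 to 5624 in cMyc+early, 6447 to 8248 in cMyc+prePB, 7848 to 8329 in cMyc+lateCD23int and 6637 to 7993 in cMyc+lateCD23lo. *Lck* and *Cd2*, which B cells can also express, made up nearly all of this sum. The order came from *Lck*, with a mean of 3133 in cMyc+early, 5136 in cMyc+lateCD23lo, 5653 in cMyc+prePB and 5808 in cMyc+lateCD23int, whereas *Cd2* was at 2124, 2112, 1659 and 2238. The other 6 markers were low: *Cd3e* and *Cd4* were each at 0 in 13 libraries, *Cd3g* and *Cd8a* in 11, *Thy1* in 5 and *Cd3d* in 1. Their highest values were 30.7 for *Cd3e*, 18.3 for *Cd4*, 48.8 for *Cd3g*, 66.2 for *Cd8a*, 96.5 for *Thy1* and 73.9 for *Cd3d*. The part of other cells in the *Jchain* and *Mzb1* values was not tested. The macrophage and monocyte markers, of which 3 of 10 passed the filter, summed to 2.89 to 190.3 in cMyc+early and 2.81 to 1168 in cMyc+lateCD23lo and so overlapped.

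*Derl3* (ENSMUSG00000009092, GRCm38 chr10:75893413-75895941) had its highest mean in cMyc+prePB, the subpopulation set up by the study as candidate plasmablast precursors. Its normalized counts in replicates 1 to 4 were 555, 1140.4, 866 and 1136 in cMyc+prePB and 669, 580.5, 294 and 732 in cMyc+early. In cMyc+lateCD23int they were 367, 381, 577 and 577, and in cMyc+lateCD23lo 468, 576, 404 and 567. Replicates 2, 3 and 4 of cMyc+prePB were above all 12 libraries of the other subpopulations, and replicate 1 was among them. The mean of 924 ± 278 (SD, n = 4) in cMyc+prePB compared with 569 ± 194, 476 ± 117 and 504 ± 82.8 in the others. Against the other 3 subpopulations the log2 difference was 0.83 ± 0.26 (SE, 95% interval 0.29 to 1.37, limma adjusted p = 0.212). Against cMyc+lateCD23int alone it was 0.93 (limma adjusted p = 0.366). Neither passed, and without replicate 1 of cMyc+prePB, where the difference from the other 3 was 1.06, the limma adjusted p was 0.0821. That was the lowest of the 16 fits that left out 1 library, and the highest was 0.566. The closest genes over the 16 libraries were *Idh2* (r = 0.871) and *Tmem238* (r = 0.856).

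The promoters of *Jchain* and *Derl3* are shown because these genes had the largest contrasts among the abundant members. The 250 bases before the RefSeq start are printed from 5′ to 3′ in the direction of transcription, for *Jchain* at chr5:88527898-88528147 on the minus strand and for *Derl3* at chr10:75893148-75893397 on the plus strand of GRCm38.p6. Capitals mark the CCACGT motif, which the ER stress factor XBP1 is known to bind.
Jchain: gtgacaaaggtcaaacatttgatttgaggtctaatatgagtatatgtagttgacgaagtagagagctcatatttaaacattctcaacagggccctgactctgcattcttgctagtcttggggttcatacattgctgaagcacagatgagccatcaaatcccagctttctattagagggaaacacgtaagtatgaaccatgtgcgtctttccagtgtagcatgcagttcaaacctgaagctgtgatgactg
Derl3: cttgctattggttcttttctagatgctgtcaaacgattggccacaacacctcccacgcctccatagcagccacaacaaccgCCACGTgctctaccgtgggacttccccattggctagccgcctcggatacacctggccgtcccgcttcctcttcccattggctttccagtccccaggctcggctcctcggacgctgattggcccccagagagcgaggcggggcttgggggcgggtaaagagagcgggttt
Promoter windows of this kind were found in RefSeq for 8 of the 10 genes, and 3 short motifs were searched on both strands. The CCACGT string stood in the *Derl3* window, 169 bases before the start, and in 6.91% of the 32851 promoters of the table. The string GAAAGT, a site of interferon regulatory factors, was found in 12.3% of all promoters, in the *Slamf7* window and at 2 positions in that of *Tnfrsf17*. The string TGANTCA, a site of AP-1 factors, was found in 6.75% of all promoters and in the *Slamf7* window, and no motif overlapped another. The *Jchain* window held none of the 3 strings, which says only that these letters were not in it.

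*Fkbp11* (ENSMUSG00000003355, GRCm38 chr15:98724366-98728198) was scarce. In cMyc+prePB its normalized counts were 73.1, 45.5, 28.0 and 21.6, against 2.71 to 56.8 in cMyc+early, 7.44 to 50.8 in cMyc+lateCD23int and 1.02 to 95.4 in cMyc+lateCD23lo. The groups overlapped, and 2 of the 16 libraries were at or under 3 reads. The log2 difference of cMyc+prePB against the other 3 was 1.21 with a 95% interval of -0.73 to 3.16 (limma adjusted p = 0.654). Its closest genes were *Nubpl* (r = 0.825) and *Mpp6* (r = 0.759).

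**Figure D3:**
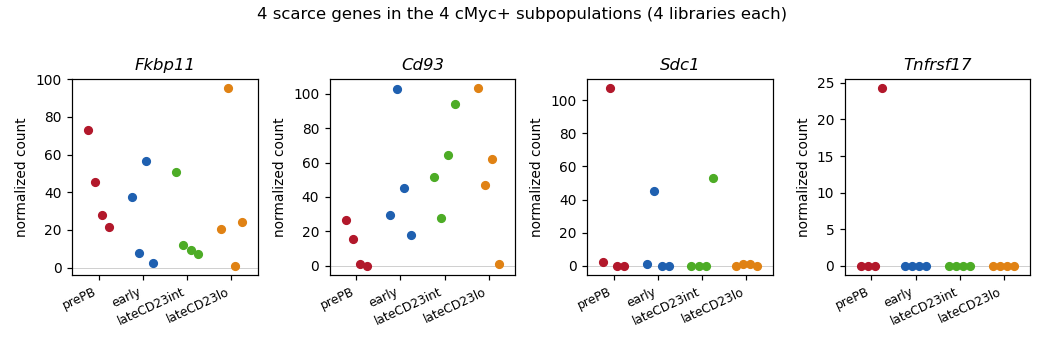
Normalized counts (linear axis) of the 4 scarce genes, with 1 point per library in the order of replicates 1 to 4. *Tnfrsf17* was above 0 in 1 library and *Sdc1* above 3 reads in 3, and *Cd93* was low in cMyc+prePB.

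Among the receptors of the BAFF and APRIL system, *Tnfrsf17* (ENSMUSG00000022496, GRCm38 chr16:11313812-11320074) was listed at 0 in 15 libraries and at 24.3 normalized counts, from 27 reads, in replicate 4 of cMyc+prePB. It failed the filter on low values. In the fit without a filter its log2 difference of cMyc+prePB against the other 3 was 1.17 (limma adjusted p = 0.687), a value that rests on that library.

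*Tnfrsf13b* (ENSMUSG00000010142, GRCm38 chr11:61126755-61149372) was highest in cMyc+early, the reverse of *Jchain*. Its normalized counts in replicates 1 to 4 were 6689, 5643, 6586 and 7231 in cMyc+early and 6491, 4163, 5836 and 5591 in cMyc+lateCD23int. They were 4099, 4056, 5417 and 5420.2 in cMyc+prePB and 3885, 4632, 4582 and 4875 in cMyc+lateCD23lo. No cMyc+early library overlapped with cMyc+prePB or cMyc+lateCD23lo, while cMyc+lateCD23int overlapped with all 3. The log2 difference of cMyc+early minus cMyc+lateCD23lo was 0.54 ± 0.16 (SE, limma adjusted p = 0.223), and that of cMyc+prePB minus cMyc+early was -0.47 ± 0.16 (limma adjusted p = 0.377). Neither passed.

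*Tnfrsf13c* (ENSMUSG00000068105, GRCm38 chr15:82221743-82224369) spanned a 1.26-fold range of means. Its mean was highest in cMyc+lateCD23int at 13162 ± 1976 normalized counts (SD, n = 4), followed by cMyc+early at 12205 ± 2111, cMyc+lateCD23lo at 10716 ± 851 and cMyc+prePB at 10447 ± 1617. The 4 cMyc+lateCD23int libraries, at 11776 to 16015, lay above those of cMyc+prePB (8032 to 11459.6) and of cMyc+lateCD23lo (9584 to 11648) and overlapped with cMyc+early. The largest of its pairwise differences, cMyc+prePB minus cMyc+lateCD23int, was -0.34 ± 0.15 on the log2 scale (limma adjusted p = 0.535). Its closest genes over the libraries were *Cxcr5*, the receptor that guides B cells into follicles (r = 0.881), and *Msn* (r = 0.878). The closest to *Tnfrsf13b* were *Bhlhe41* (r = 0.849) and *AI467606* (r = 0.817).

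Among the surface proteins, *Slamf7* (ENSMUSG00000038179, GRCm38 chr1:171632403-171653035) had overlapping levels in the 4 subpopulations. The mean was 5435 ± 1209 normalized counts (SD, n = 4) in cMyc+early, 5180.0 ± 898 in cMyc+lateCD23int, 5127 ± 1268 in cMyc+lateCD23lo and 4552 ± 1122 in cMyc+prePB, and all 4 groups overlapped. The difference of cMyc+prePB against the other 3 was -0.21 on the log2 scale, with a 95% interval of -0.57 to 0.14 (limma adjusted p = 0.674). Exons of *Slamf7* overlap the antisense gene *Gm37787*, at a mean of 36.9 normalized counts, and the library kit does not mark strand. *2310033P09Rik* (r = 0.873) and the light chain segment *Igkv3-4* (r = 0.840) were its closest genes.

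*Cd93* (ENSMUSG00000027435, GRCm38 chr2:148436640-148443563), which encodes a surface glycoprotein of long-lived plasma cells and of early B cells, was lowest in cMyc+prePB. There its normalized counts were 26.9, 15.7, 0.902 and 0 in replicates 1 to 4. They were 29.3, 103, 45.2 and 18.1 in cMyc+early, 51.7, 27.5, 64.4 and 93.9 in cMyc+lateCD23int and 103, 46.8, 62.2 and 1.02 in cMyc+lateCD23lo. cMyc+prePB and cMyc+lateCD23int did not overlap, and 11 of the 12 libraries outside cMyc+prePB were above 3 reads. The log2 difference of cMyc+prePB against the other 3 was -2.87 ± 0.9996 (SE, 95% interval -4.97 to -0.77) and did not pass (limma adjusted p = 0.275). Its closest genes were *Gm37472* (r = 0.875) and *AA474408* (r = 0.842).

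*Sdc1* (ENSMUSG00000020592, GRCm38 chr12:8771323-8793715) rested on 3 libraries. It was at 108 normalized counts in replicate 2 of cMyc+prePB, 45.1 in replicate 2 of cMyc+early and 53.0 in replicate 4 of cMyc+lateCD23int, and at or under 3 reads in the other 13. The fitted difference of cMyc+prePB against the other 3 was 0.91 on the log2 scale with a 95% interval of -2.07 to 3.89, and its sign turned without replicate 2 of cMyc+prePB. *Gpm6b* (r = 0.735) and *Il12rb1* (r = 0.712) were closest to it.

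**Figure D4:**
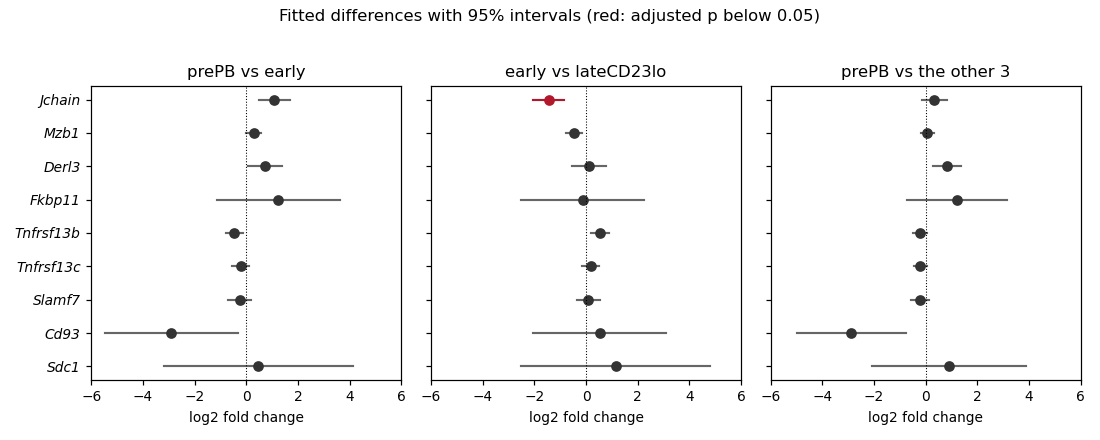
Log2 fold changes (x axis) of the 9 tested genes in 3 comparisons, with 95% intervals as lines. The point in red, *Jchain* at -1.44 in cMyc+early against cMyc+lateCD23lo, is the single value with a limma adjusted p below 0.05.

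In the other comparisons 0 of the 9 genes were called by limma and 0 by edgeR without a block. At an unadjusted limma p under 0.05 there were 4 of 9 for cMyc+prePB against cMyc+early, 3 against cMyc+lateCD23int, 1 against cMyc+lateCD23lo and 2 against the other 3 together. There was 1 each for cMyc+early against cMyc+lateCD23int and for cMyc+lateCD23int against cMyc+lateCD23lo, and 4 in the F test. Over all genes, the share at an unadjusted p under 0.05 in these comparisons was 8.58%, 8.77%, 12.7%, 11.1%, 3.71%, 6.28% and 10.2%, in the same order. The called share over all genes was 0.192% for cMyc+prePB against cMyc+early, 0.144% against cMyc+lateCD23int, 0.264% against cMyc+lateCD23lo and 0.312% against the other 3. It was 0.008% for cMyc+early against cMyc+lateCD23int and 0.008% for cMyc+lateCD23int against cMyc+lateCD23lo. The median log2 difference of the 9 genes from cMyc+early to cMyc+prePB was 0.28, beside 0.01 over all tested genes, with 5 higher and 4 lower. For cMyc+prePB the median was 0.11 against cMyc+lateCD23int, -0.05 against cMyc+lateCD23lo and 0.07 against the other 3, beside -0.02, -0.01 and 0.00 over all genes. It was 0.06 for cMyc+early minus cMyc+lateCD23int, 0.11 for cMyc+early minus cMyc+lateCD23lo and 0.03 for cMyc+lateCD23int minus cMyc+lateCD23lo, beside -0.03, -0.01 and 0.02.

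The 4 libraries of a subpopulation lay apart from the 4 of another for 3 of the 9 genes between cMyc+prePB and cMyc+early (*Jchain*, *Mzb1* and *Tnfrsf13b*), beside 4.23% of all tested genes. The same 3 genes did so between cMyc+early and cMyc+lateCD23lo, beside 6.23%, in a comparison that shares the cMyc+early libraries. *Tnfrsf13c* and *Cd93* were the 2 between cMyc+prePB and cMyc+lateCD23int (5.21% of all genes), *Jchain* the 1 between cMyc+early and cMyc+lateCD23int (2.48%) and *Tnfrsf13c* the 1 between cMyc+lateCD23int and cMyc+lateCD23lo (3.77%). Between cMyc+prePB and cMyc+lateCD23lo there were 0 (6.56%).

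The genes that work with these 10 were read from 7 lists with 117 distinct genes, of which 97 were tested. Over the 7 contrasts, limma called 151 of 87535 tests among all genes. Within the lists there was 1 call, in that of other syndecans and heparan sulfate synthesis (14 of 16 genes tested). This was *Sdc4*, another cell surface heparan sulfate proteoglycan, whose normalized counts were 2632 to 3520.4 in cMyc+early and 757 to 1612 in cMyc+lateCD23lo. Its log2 difference was 1.43 ± 0.23 (SE, limma adjusted p = 0.00872).

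The other 6 lists, with 83 genes tested, had 0 calls over the 7 contrasts by limma and 0 by edgeR without a block. At an unadjusted p under 0.05, 74 of their 581 limma tests passed, or 12.7%, beside 8.79% over all genes, and 78 with edgeR. Among the 19 genes of IgM assembly in the ER that were tested, 16 were higher and 3 lower in cMyc+prePB than in the other 3, with a median log2 difference of 0.22 beside 0.00 over all genes, and the lowest limma adjusted p was 0.117. Of the 19 genes of ER-associated degradation, the pathway of *Derl3*, 10 were higher and 9 lower, with a median of 0.04. Of the 9 other FK506-binding proteins tested, 7 were higher and 2 lower (median 0.36). For the 11 genes of the BAFF and APRIL pathway the median was 0.16, for the 10 of the SLAM family and its adaptors -0.22 and for the 16 other plasma cell genes 0.04.

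The regulators of the plasma cell program gave no call. *Xbp1*, which drives expansion of the ER, was at 3956 to 5894 normalized counts in cMyc+prePB and 3284 to 3979 in cMyc+early (log2 difference 0.41, limma adjusted p = 0.455). It was at 3441 to 3929 in cMyc+lateCD23int and 3692 to 5091 in cMyc+lateCD23lo, from which cMyc+prePB differed by 0.36 (limma adjusted p = 0.499) and 0.18 (limma adjusted p = 0.654). *Prdm1*, the repressor of B cell genes in plasma cells, was at 0 to 7.96 in cMyc+early and 10.2 to 133 in cMyc+lateCD23lo, with a log2 difference of -4.49 ± 1.06 (SE, limma adjusted p = 0.0893). Its reads in cMyc+early were 2, 9, 0 and 1 in replicates 1 to 4, so this difference rests on values near the floor of 3 reads. In cMyc+prePB *Prdm1* was at 6.45, 119, 9.02 and 6.31 normalized counts in replicates 1 to 4, and in cMyc+lateCD23int at 36.3 to 130.3. The log2 difference of cMyc+prePB was 2.57 from cMyc+early (limma adjusted p = 0.520), -2.19 from cMyc+lateCD23int (limma adjusted p = 0.581) and -1.92 from cMyc+lateCD23lo (limma adjusted p = 0.462). *Irf4* was at 287 to 1025 over the 16 libraries, with a log2 difference of 0.15 between cMyc+prePB and the other 3 (limma adjusted p = 0.882). *Spn*, which encodes the CD43 used for depletion, was at 2.10 to 141 normalized counts.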

How the data were processed

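Total RNA of the 16 sorted samples was sequenced after library preparation with a low-input kit. The submitters' processing notes name Trimmomatic 0.36, STAR 2.5.2a, RSEM 1.2.31, DESeq2 1.20.0 and GRCm38, without roles. The values deposited by the authors are a signal: counts per gene scaled by a size factor for each library. All values (100%) were whole multiples of 1 read within a tolerance of 0.01. Log2(value + 1) of 12505 genes (mean 10 or more) was fitted with limma 3.58.1 in R 4.3.3 over the 16 libraries together, with a trended prior, and p-values were adjusted by Benjamini-Hochberg (threshold 0.05), while a count test (edgeR) on the recovered reads was an alternative. This scale understates changes of low genes. On simulated data for cMyc+prePB against cMyc+early with 12505 genes, limma found 28 of 100 genes changed 2-fold and 58 of 100 changed 4-fold, with 6 false calls. The changed genes were drawn from those averaging above 50 normalized counts, so these rates do not cover *Fkbp11*, *Cd93* or *Sdc1*. edgeR 4.0.16, its blocked fit and the gene-length covariate were added after seeing the data. Gene lengths came from GENCODE GRCm38 exons and promoters from RefSeq GRCm38.p6. Genes named were the 10 chosen, list genes that passed, *Xbp1*, *Prdm1*, *Irf4*, *Spn*, *Ptprc* and *Cd69*, and the closest pair of genes by correlation. *Ms4a1* and the T cell markers were named after their values were seen. The genes and lists were chosen with earlier results of these data known.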

Additional observations from a re-analysis of the deposited data

Results flagged for a closer look

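Of 40 sets of 4 libraries (10 genes in 4 subpopulations), 8 held a library whose gap to its nearest neighbor took up more of the group's range than Dixon's 95% critical value for 4 samples allows. For normally distributed values chance flags about 1 in 20 such sets, a rate that does not apply to sets of values near 0. Of the 40 sets, 3 (*Tnfrsf17* outside cMyc+prePB) were all at 0, and 4 of the 8 flags (*Sdc1* and *Tnfrsf17*) came from sets with 1 library well above 0. Replicate 1 of cMyc+prePB stood apart for *Jchain*, at 104886 normalized counts against 31885 to 43640.1 in the others, and for *Tnfrsf13c*, at 8032 against 11130.4 to 11459.6. *Sdc1* stood apart in replicate 2 of cMyc+prePB at 108, in replicate 2 of cMyc+early at 45.1 and in replicate 4 of cMyc+lateCD23int at 53.0. *Tnfrsf17* did so in replicate 4 of cMyc+prePB at 24.3. Replicate 1 of cMyc+lateCD23int was flagged for *Fkbp11*, at 50.8 against 7.44 to 12.2, and for *Slamf7*, at 6526 against 4707 to 4744. The causes were not tested.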

How the results depend on the processing

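The call of *Jchain* between cMyc+early and cMyc+lateCD23lo was kept under 14 of 27 alternatives. Members called there numbered 0, in place of 1, with no filter on low values, with the short-long covariate and with edgeR on recovered reads. In the F test 1 member, *Jchain*, was called in place of 0 with quantile normalization (adjusted p = 0.0381), with the replicate block (0.0292) and with edgeR plus the block (0.0481). The block changed no other call of a member. The labels do not say what the replicate numbers share, and they were not treated as pairing the libraries. Over 24 same-numbered pairs, deviations from subpopulation means correlated at -0.129 to 0.174 (5 pairs over 0.1), and 11 of 16 libraries correlated best with their own number. The mean r was 0.0509, beside -0.0166 for pairs of other numbers. Among the 3651 most abundant genes, r was -0.592 to 0.701 (17 pairs over 0.1). Its mean was 0.259, beside -0.0813 for pairs of other numbers, and 10 of 16 libraries correlated best with their own number. Same-numbered libraries were more alike on average, and what they share was not tested. With the replicate block, limma called 173 genes in the F test, 65 for cMyc+prePB against cMyc+early, 121 against cMyc+lateCD23int, 192 against cMyc+lateCD23lo, 211 against the other 3 and 90 for cMyc+early against cMyc+lateCD23lo. Without it these counts were 51, 24, 18, 33, 39 and 35. With edgeR and the block they were 129, 54, 94, 142, 170 and 63, and 0 for cMyc+early against cMyc+lateCD23int. edgeR without the block gave 29 in the F test, 8 and 11 for cMyc+prePB against cMyc+early and cMyc+lateCD23int and 23 for cMyc+early against cMyc+lateCD23lo. Without a filter, 31, 4, 9 and 21 genes were called in the F test and for cMyc+prePB against cMyc+early, cMyc+lateCD23int and cMyc+lateCD23lo. With the groups compared alone, these 3 pairs gave 0, 8 and 13, and cMyc+early against cMyc+lateCD23lo gave 20. Quantile normalization gave 29 for cMyc+prePB against cMyc+lateCD23int, and the covariate 81 for cMyc+prePB against cMyc+lateCD23lo. The single gene called for cMyc+early against cMyc+lateCD23int was lost (0) with a pseudocount of 5, a mean of at least 50, quantile normalization and the groups alone, and that for cMyc+lateCD23int against cMyc+lateCD23lo with the last 2.

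Leaving out 1 library each gave 31 to 68 genes in the F test, 3 to 30 for cMyc+prePB against cMyc+early, 7 to 31 against cMyc+lateCD23int, 16 to 153 against cMyc+lateCD23lo and 24 to 79 against the other 3. For cMyc+early it gave 0 to 1 against cMyc+lateCD23int and 17 to 50 against cMyc+lateCD23lo, and 0 to 1 for cMyc+lateCD23int against cMyc+lateCD23lo. Members called ranged from 0 to 1 in the F test and from 0 to 1 for cMyc+early against cMyc+lateCD23lo. The *Sdc1* difference of cMyc+prePB from the other 3 ranged from -0.64 to 1.62 and turned sign, to -0.64, without replicate 2 of cMyc+prePB. The other 14 log2 differences printed for members (*Tnfrsf17*, fitted without a filter alone, left aside) kept their sign under each alternative that gave a value. For genes under 100 normalized counts, depth limits what can be seen.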
